A study of Mus musculus with 24 samples.

Results

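The genes described here are 32 genes of myelin and of the oligodendrocyte lineage, chosen by symbol for their known roles and counted in every one of the 12 brain libraries of the series. They are 32 of 55797 gene names per count file, and all 32 passed the filter on low counts that left 23653 brain genes for testing. They were put into 5 classes by their known roles: 5 genes of precursors and newly forming oligodendrocytes, 3 transcription factors of the whole lineage, 3 regulators of mature cells, 12 proteins of the myelin sheath and its contacts, and 9 genes of lipid synthesis, transport, junctions and other functions of mature cells. The last 3 classes together are the 24 mature genes.

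The mice were db/db, which lack a working long form of the leptin receptor and become obese and diabetic, and they were set against db/+ mice, which carry 1 copy of the same db allele and are lean. For 16 weeks the males, of a strain given as C57/BL6, had 3M-Brazzein (a modified form of a sweet plant protein), sucrose or water to drink. This gave 6 brain groups of 2 libraries: db/db on brazzein, on sucrose and on water, and db/+ on brazzein, on sucrose and on water. The series also holds 12 liver libraries of the same groups. The labels give the tissue as brain with no region, give no age, and do not say whether the 2 libraries of a group came from separate mice, so p-values measure only the spread between these libraries. The genotype was read from the titles, because another label entry gives db/+ for all brain libraries and so contradicts the title in 6 of the 12.

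Oligodendrocytes wrap axons in myelin, a sheath of tightly packed membrane that speeds conduction and feeds the axon. They arise throughout adult life from dividing precursors, which pass through a short newly forming stage before they switch on the genes of the sheath and of its galactolipids. SOX10, OLIG1 and OLIG2 act in precursors and mature cells alike, while MYRF drives the sheath genes once a cell has stopped dividing. Leptin receptor mutants are known for a small brain, and myelin was long ago reported to be scarce in leptin-deficient and leptin receptor-deficient mice.

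Brain libraries held 58287665 to 77772849 counts, and the correlation of log2 CPM (a gene’s count scaled to a common library size) between 2 libraries ranged from 0.968 to 0.977. The library of db/+ on water, replicate 1, stood apart in region markers: its 12 cerebellum markers summed to 783 CPM, against 1764 to 2020 CPM in the other 11 libraries. The library of db/db on sucrose, replicate 1, had the fewest counts and the lowest mean correlation with the others (0.971). Counts of the leptin receptor gene Lepr had a lowest, median and highest value of 2.004, 2.503 and 2.78 CPM in db/db brains and 3.13, 3.40 and 3.87 CPM in db/+ brains (log2 difference -0.48, SE 0.11, edgeR adjusted p = 0.157). The 2 genotypes did not overlap, but the db allele changes splicing and the counts sum all forms of the receptor, so this does not check the labels.

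As a check of the tissue, the genes were read in the deposited FPKM (fragments scaled by transcript length and by library size), a level that can be compared between genes. Myelin basic protein, Mbp, led with 1363 ± 74.7 FPKM, followed by Mobp (myelin-associated oligodendrocyte basic protein) with 342 ± 23.7 and the 2′,3′-cyclic nucleotide phosphodiesterase Cnp with 110 ± 5.68 FPKM (mean ± SD over 12 brain libraries). At the other end, Nkx2-2 had 1.46 ± 0.876, Ninj2 1.62 ± 0.341 and Cspg4 1.76 ± 0.183 FPKM. In the 12 liver libraries, 16 of the 32 genes stayed under 0.1 FPKM in every library, and 29 were above their whole liver range in every brain library. Liver exceeded brain for 2 genes in every library: Trf, the iron carrier transferrin, had a lowest, median and highest liver level of 2032, 3102 and 4207 FPKM, and Gjb1, the gap junction protein connexin 32, had 155, 190 and 240.5 FPKM.

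**Figure D1:**
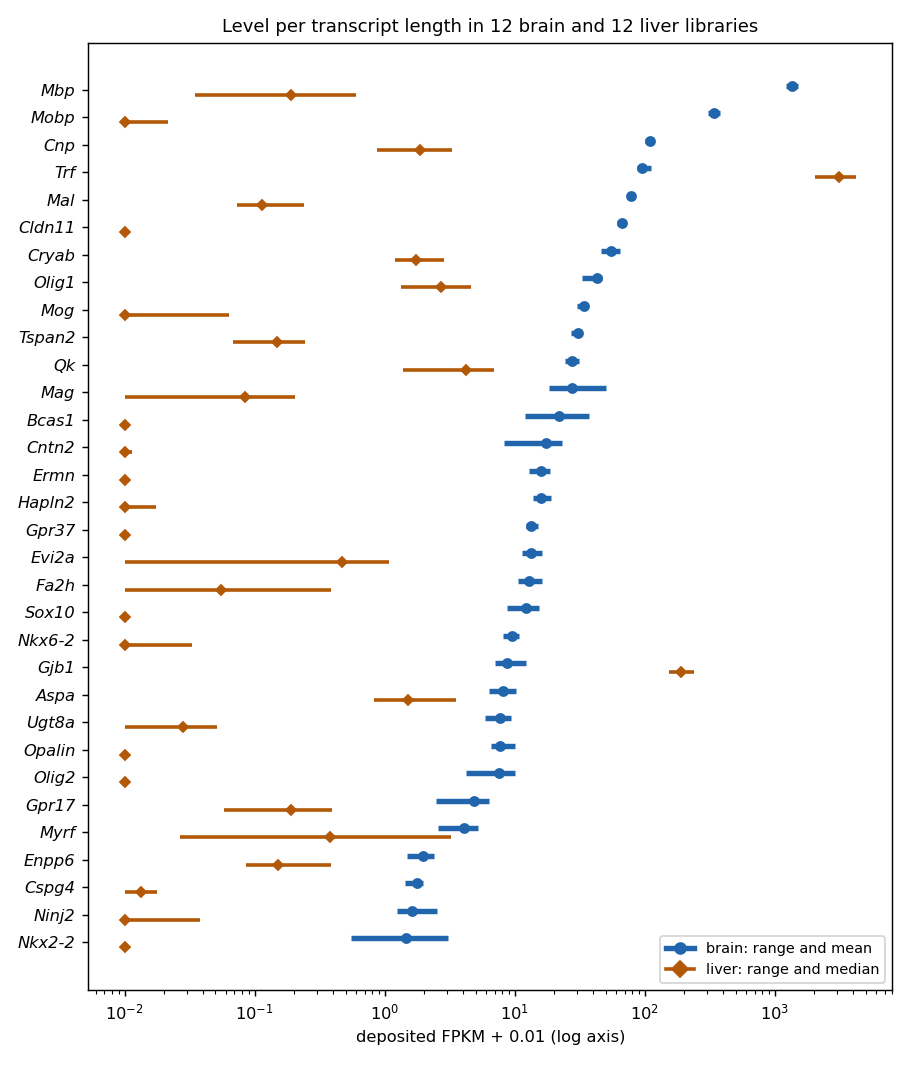
Level of each of the 32 genes in deposited FPKM on a log axis, with 0.01 added so that zeros can be drawn. Blue bars and circles give the range and mean of 12 brain libraries, and orange bars and diamonds the range and median of 12 liver libraries; Trf and Gjb1 are the 2 genes whose liver bars lie wholly to the right of brain.

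The first question was whether the lineage differed between genotypes. Averaged over drinks, 27 of the 32 genes had a log2 difference below 0 in db/db relative to db/+ brains and 5 a difference above 0, with a median of -0.13, beside -0.00 over all 23653 genes, 50.1% of which were below 0. In bulk tissue, fewer cells of a type and less RNA per cell cannot be told apart. By edgeR's quasi-likelihood test none of the 32 passed an adjusted p of 0.05, where 2 of 23653 genes passed (0.00846%); the smallest adjusted p of the 32 was 0.160, for Ermn. At an unadjusted p under 0.05, edgeR listed 12 of the 32 (13.8% of all genes), of which 10 were below 0 and 2 above 0, against 7.16% and 6.69% of all genes. DESeq2, an alternative test, called 5 of the 32 at an adjusted p of 0.05. Bcas1, Ermn, Gjb1 and Ninj2 were lower in db/db and Hapln2 was higher. It called 869 genes in all, 4.45% of the 19525 to which it gave an adjusted p. Each DESeq2 share below is of the genes given an adjusted p, the number of which differed between comparisons.

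The differences were then read by class. Averaged over drinks, all 5 precursor and newly forming genes were below 0 (median log2 difference -0.30, from -0.84 to -0.07), though not within each drink. The median was the value of Gpr17. Leaving out single libraries put Gpr17 between -0.50 (without db/db on water replicate 1) and -0.15 (without db/db on water replicate 2). Below 0 as well were the 3 lineage-wide factors (median -0.16) and the 3 regulators of mature cells (median -0.10). Of the 12 sheath genes, 7 were below and 5 above 0, with a median of -0.04. All 9 genes of lipid, transport, junction and other functions were below 0, with a median of -0.19. The 95% interval of the difference lay within 1.5-fold in either direction for 27 of the 32 genes, among them 22 of the 24 mature genes but only 2 of the 5 precursor genes, whose libraries varied more: the median within-group coefficient of variation was 22.3% for the precursor class and 6.75% for the sheath class.

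**Figure D2:**
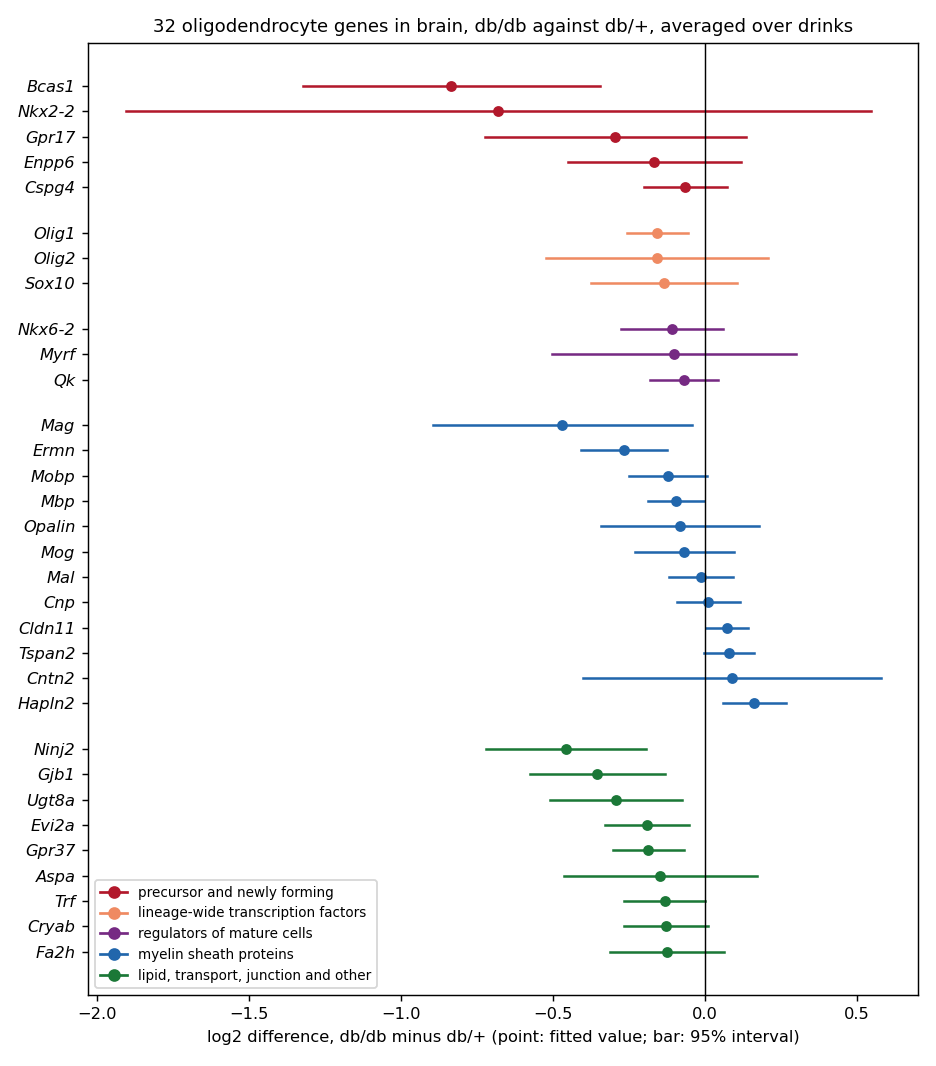
Log2 difference between db/db and db/+ brains (horizontal axis) for each of the 32 genes, averaged over the 3 drinks, with 95% intervals from the edgeR fit, coloured by class. Points left of 0 are lower in db/db; Bcas1 sits farthest left at -0.84, and Hapln2 farthest right at 0.16.

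Among precursor genes, Bcas1, which marks oligodendrocytes in the act of starting to myelinate, had the widest separation. Its lowest, median and highest levels were 40.9, 52.5 and 100.4 CPM in db/db brains and 53.2, 114 and 139 CPM in db/+ brains. Of the db/db libraries 5 lay between 40.9 and 57.0 CPM and 1, on sucrose, at 100.4, while 5 db/+ libraries lay at 90.6 CPM or above and 1, on water, at 53.2. The fitted ratio was 0.560 (log2 -0.84, SE 0.21, edgeR adjusted p = 0.177, DESeq2 adjusted p = 0.00981). Leaving out db/db on sucrose replicate 1 put the log2 difference at -1.06, and leaving out replicate 2 of that group at -0.68. On water alone it was -0.39 (SE 0.36, edgeR adjusted p = 0.849). In the annotation used here Bcas1 shares exons with the antisense genes Bcas1os1 and Bcas1os2, and the kit named in the labels does not mark strand, so their reads cannot be told apart.

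The other 4 precursor genes overlapped between genotypes, as Bcas1 did. Gpr17, a receptor of committed precursors that is switched off before myelination, had 19.1, 36.8 and 38.9 CPM (lowest, median and highest) in db/db and 32.4, 38.95 and 47.7 CPM in db/+ brains (log2 -0.30, SE 0.19, edgeR adjusted p = 0.538). Enpp6, a choline phosphodiesterase of newly forming cells, had 9.03, 11.8 and 15.1 CPM in db/db and 11.4, 13.5 and 15.1 CPM in db/+ brains (log2 -0.17, SE 0.12, edgeR adjusted p = 0.606). The low db/db ends came from db/db on water replicate 2 for Gpr17 and from db/db on brazzein replicate 2 for Enpp6, whose difference was -0.08 without that library. Cspg4, the NG2 proteoglycan of precursors, had 15.6, 18.8 and 22.1 CPM in db/db and 17.9, 18.8 and 21.2 CPM in db/+ brains, with equal medians (log2 -0.07, SE 0.06, edgeR adjusted p = 0.681). Nkx2-2, a homeobox factor of differentiation onset, ranged from 1.36 to 9.29 CPM over the 12 libraries, 6.83-fold, and its interval ran from -1.91 to 0.55; without db/+ on brazzein replicate 2 its log2 difference was -0.16, instead of -0.68.

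The lineage-wide factors differed by little between genotypes. Olig1 had 102, 133 and 147 CPM in db/db and 136.5, 142 and 149.9 CPM in db/+ brains (log2 -0.16, SE 0.04, edgeR adjusted p = 0.193). Sox10 had 35.5, 46.4 and 53.8 CPM in db/db and 43.98, 50.9 and 61.3 CPM in db/+ brains (log2 -0.13, SE 0.10, edgeR adjusted p = 0.626). Both sets of libraries overlapped, and for Olig1 the 2 lowest of all were the db/db libraries on sucrose. Olig2 had 19.3, 27.4 and 34.6 CPM in db/db and 15.6, 29.7 and 37.05 CPM in db/+ brains (log2 -0.16, SE 0.16, edgeR adjusted p = 0.720). Its lowest value of all, 15.6 CPM, was in the db/+ library on water that had few cerebellum markers, without which the difference was -0.29; without the other db/+ library on water it was 0.02.

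Myrf, the factor that switches on the sheath genes, had 26.97, 31.6 and 38.7 CPM in db/db and 21.1, 36.02 and 42.1 CPM in db/+ brains, wholly overlapping (log2 -0.10, SE 0.17, edgeR adjusted p = 0.852). Leaving out db/+ on brazzein replicate 1 gave -0.24, and leaving out replicate 2 of that group 0.09. Nkx6-2, a homeobox factor needed for orderly myelin at the node, and Qk, an RNA-binding protein that handles Mbp and other myelin transcripts, lay within 1.33-fold and 1.25-fold over all 12 libraries. Their log2 differences were -0.11 and -0.07, with edgeR adjusted p-values of 0.565 and 0.579.

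The sheath genes included the most abundant of the 32. Mbp, which zips the inner membrane faces together, had 3647, 3890 and 3989 CPM in db/db and 3841, 4120 and 4444 CPM in db/+ brains (log2 -0.10, SE 0.04, edgeR adjusted p = 0.349), and it was among the 12 genes at an unadjusted p under 0.05. Mobp, the second by level, had 1150, 1218 and 1322 CPM in db/db and 1199, 1359 and 1422 CPM in db/+ brains (log2 -0.12, SE 0.06, edgeR adjusted p = 0.389). Both overlapped between genotypes. Mog, on the outermost lamella, had 70.4, 83.8 and 89.3 CPM in db/db and 75.6, 87.2 and 90.5 CPM in db/+ brains (log2 -0.07, SE 0.07, edgeR adjusted p = 0.729). Cnp, which keeps cytoplasmic channels in the sheath open, had 399.7, 422 and 436 CPM in db/db and 372, 431 and 439 CPM in db/+ brains (log2 0.01, SE 0.04, edgeR adjusted p = 0.950). For these 2 the ranges overlapped as well, and the 95% intervals of all 4 fits stayed within 1.5-fold. Cnp took either sign when single libraries were left out. Mal, a proteolipid of compact myelin, differed by -0.01 with an interval from -0.12 to 0.09 on the log2 scale, and it spanned 1.16-fold over the 12 libraries; it too took either sign when single libraries were left out.

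Ermn, which encodes the cytoskeletal protein ermin that appears late in the maturing sheath, was singled out after its values were seen. It had 70.4, 76.7 and 83.1 CPM in db/db and 85.4, 92.4 and 98.7 CPM in db/+ brains. All 6 db/db libraries lay below all 6 db/+ libraries, which held for 2 of the 32, Ermn and Ninj2, and for 0.989% of all genes; no gene of the 32 lay wholly above, as 0.871% of all genes did. The log2 difference was -0.27 (SE 0.06, ratio 0.832, edgeR adjusted p = 0.160; DESeq2 adjusted p = 0.0186). Exons of Ermn overlap those of Galnt5 on the opposite strand. Mag, the adhesion molecule of the innermost membrane, had 59.3, 68.3 and 108 CPM in db/db and 72.5, 95.3 and 154 CPM in db/+ brains (log2 -0.47, SE 0.18, edgeR adjusted p = 0.317). Its ranges overlapped, with a within-group coefficient of variation of 28.3%, the highest of the sheath class.

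Of the 5 sheath genes above 0, Hapln2, a link protein of the matrix at nodes of Ranvier, stood highest. It had 46.1, 52.7 and 61.8 CPM in db/db and 44.2, 48.6 and 49.8 CPM in db/+ brains (log2 0.16, SE 0.05, edgeR adjusted p = 0.197; DESeq2 adjusted p = 0.0350). Its 2 highest db/db values were those on water. On sucrose both db/db libraries (46.9 and 46.1 CPM) lay below both db/+ libraries (49.6 and 49.8 CPM). Cldn11, the tight-junction protein of the sheath, had 172.5, 188 and 191 CPM in db/db and 168, 174 and 188 CPM in db/+ brains (log2 0.07, SE 0.03, edgeR adjusted p = 0.335). Tspan2, a tetraspanin (log2 0.08), Cntn2, an adhesion protein beside the node (0.09), and Opalin (-0.08) had edgeR adjusted p-values between 0.377 and 0.902. Without the db/+ library with few cerebellum markers the difference of Cntn2 was -0.07. Cntn2 was also the most scattered of these, with 83.1 CPM in the db/+ library with few cerebellum markers and 246 CPM at its highest.

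In the lipid, transport and junction class, Ninj2 (ninjurin 2, an adhesion protein) had 1.59, 1.68 and 1.80 CPM in db/db and 2.04, 2.22 and 3.10 CPM in db/+ brains. The 2 genotypes did not overlap, and the fitted log2 difference was -0.46 (SE 0.11, ratio 0.728, edgeR adjusted p = 0.174; DESeq2 adjusted p = 0.0299). Gjb1, connexin 32, had 16.0, 17.4 and 19 CPM in db/db and 18.7, 21.8 and 27.9 CPM in db/+ brains (log2 -0.35, SE 0.10, edgeR adjusted p = 0.193; DESeq2 adjusted p = 0.0358). Only the highest db/db library on water, at 19 CPM, exceeded the lowest db/+ library. Leaving out db/+ on sucrose replicate 2, the highest library of both genes, put the log2 differences at -0.35 for Ninj2 and -0.25 for Gjb1.

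Ugt8a, the enzyme that makes the galactolipid galactocerebroside, had 32.8, 37.9 and 43.4 CPM in db/db and 40.2, 46.3 and 50.5 CPM in db/+ brains (log2 -0.29, SE 0.09, edgeR adjusted p = 0.238). Gpr37, a receptor of oligodendrocytes, had 82.7, 88.3 and 95.3 CPM in db/db and 91.0, 103 and 107 CPM in db/+ brains (log2 -0.19, SE 0.05, edgeR adjusted p = 0.192). Evi2a, a membrane protein gene that lies within Nf1, had 29.02, 30.7 and 33.2 CPM in db/db and 30.4, 36.3 and 38.7 CPM in db/+ brains (log2 -0.19, SE 0.06, edgeR adjusted p = 0.229). In each of these 3 the upper db/db libraries overlapped the lowest db/+ ones. Exons of Evi2a overlap those of Evi2 on the same strand. The remaining 4 were close together: Fa2h (fatty acid 2-hydroxylase, log2 -0.13), Aspa (aspartoacylase, -0.15), Trf (-0.13) and Cryab (the small heat shock protein alpha-B-crystallin, -0.13) had edgeR adjusted p-values between 0.365 and 0.694.

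**Figure D3:**
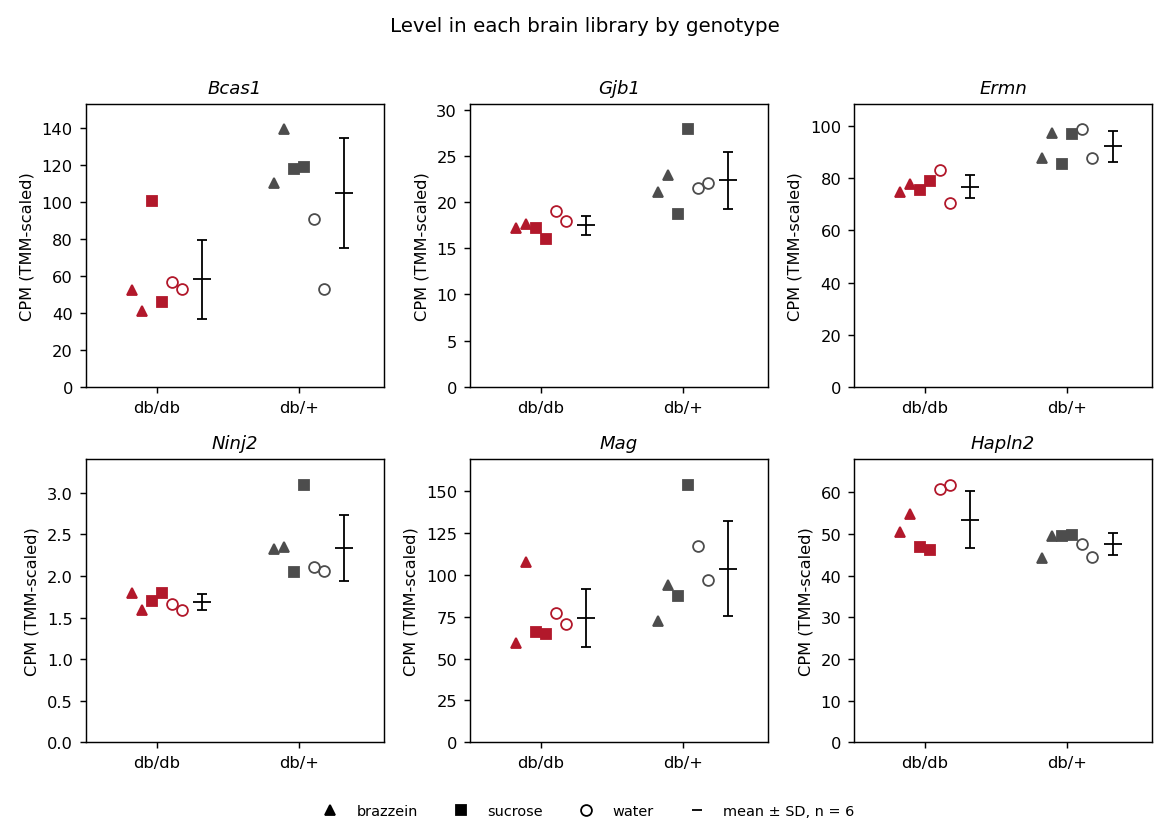
CPM of 6 genes in each of the 12 brain libraries, db/db to the left of db/+ in each panel, with drinks as symbols and the mean ± SD of 6 libraries beside them. Ermn and Ninj2 show no overlap between genotypes, Bcas1, Gjb1 and Mag overlap between genotypes, and the mean of Hapln2 is higher in db/db.

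The 4 genes called by DESeq2 for genotype and listed in the RefSeq promoter table are shown with the 250 bases before their start. Bcas1, which DESeq2 also called and which had the largest difference of the 32, is not listed there. The build is GRCm38.p6. The authors' counts used GRCm39, so no count was placed on these coordinates. Capitals mark letters found on either strand of ACAAAG, the core of SOX sites, of CTGGCAC or CTGGTAC, described for MYRF, or of the E-boxes CAGATG and CAGCTG. The windows are Ermn at chr2:58052865-58053114 on the minus strand, Gjb1 at chrX:101376126-101376375 on the plus strand (the first of 4 listed), Hapln2 at chr3:88027512-88027761 on the minus strand, and Ninj2 at chr6:120093130-120093379 on the plus strand.
Ermn: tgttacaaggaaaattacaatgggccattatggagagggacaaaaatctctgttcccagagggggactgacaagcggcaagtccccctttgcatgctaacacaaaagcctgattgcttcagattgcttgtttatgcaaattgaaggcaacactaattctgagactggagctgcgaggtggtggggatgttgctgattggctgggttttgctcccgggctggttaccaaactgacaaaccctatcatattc
Gjb1: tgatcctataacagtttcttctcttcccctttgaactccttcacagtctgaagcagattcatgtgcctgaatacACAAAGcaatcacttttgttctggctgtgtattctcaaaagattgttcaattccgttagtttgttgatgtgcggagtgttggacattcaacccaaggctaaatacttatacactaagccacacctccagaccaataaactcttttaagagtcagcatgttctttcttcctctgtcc
Hapln2: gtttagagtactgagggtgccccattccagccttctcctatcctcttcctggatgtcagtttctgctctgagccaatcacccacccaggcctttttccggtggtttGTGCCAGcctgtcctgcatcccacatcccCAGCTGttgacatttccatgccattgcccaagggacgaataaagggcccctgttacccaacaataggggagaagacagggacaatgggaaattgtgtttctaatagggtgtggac
Ninj2: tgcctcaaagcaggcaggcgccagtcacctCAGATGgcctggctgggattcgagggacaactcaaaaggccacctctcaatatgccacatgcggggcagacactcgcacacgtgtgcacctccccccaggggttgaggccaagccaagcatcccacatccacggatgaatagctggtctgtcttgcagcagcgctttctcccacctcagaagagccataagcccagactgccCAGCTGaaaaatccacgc

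No motif was found in the window of Ermn, 1 match in that of Gjb1, and 2 each in those of Hapln2 and Ninj2. Of the 32 genes, 22 had 28 windows in the table. ACAAAG was in 28.6% of these 28 windows, against 16.5% of all 32851 windows, and CTGGCAC in 14.3%, against 4.19%. CTGGTAC was in 3.57%, against 1.83%, CAGATG in 21.4%, against 14.4%, and CAGCTG in 10.7%, against 13%. A gene can have several windows, and the windows with a match came from 6, 3, 1, 6 and 3 genes, in this order. A match describes the letters of a window, and nothing was read from it about the factors.

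The genotypes were also set against each other within each drink. On brazzein 26 of the 32 genes were below 0 in db/db, on sucrose 24 and on water 21, with medians of -0.14, -0.12 and -0.12. On water the 3 lineage-wide factors had 2 above 0 and a median of 0.01. Of the 5 precursor genes, 2 were above 0 on water, 0 on sucrose and 1 on brazzein. Those on water were Cspg4 (log2 0.23, with both db/db libraries above both db/+ ones) and Enpp6 (0.12). The share of all genes below 0 was 49.4% on brazzein, 50.3% on sucrose and 49.4% on water. The db/+ side on water includes the library with few cerebellum markers. Between genotypes, all 12 cerebellum markers were above 0 on water (median 0.42), against 2 on sucrose and 3 on brazzein. The part of that library in the values on water was not tested. EdgeR called 0 of the 32 at an adjusted p of 0.05 in each, where it called 0% of all genes on brazzein and on sucrose and 0.00846% on water. At an unadjusted p under 0.05, edgeR listed 6 genes on brazzein (all below 0), 7 on sucrose (6 below 0) and 4 on water (2 below 0), against 8.15%, 9.32% and 6.79% of all genes. DESeq2 called 1 gene in each: Bcas1 on brazzein (log2 -1.42, adjusted p = 0.0308), Olig1 on sucrose (-0.38, adjusted p = 0.00847) and Hapln2 on water (0.41, adjusted p = 0.00171). It called 1.07%, 1.76% and 0.613% of the genes given an adjusted p in these comparisons.

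The behaviour of single libraries is seen when each gene is set to its own mean. The median over the 32 genes ran from -0.11 to 0.02 on the log2 scale in the 6 db/db libraries and from -0.05 to 0.16 in the 6 db/+ libraries. The ranges overlapped: 3 db/db libraries (water replicate 1, brazzein replicate 1 and sucrose replicate 1) lay above db/+ on sucrose replicate 1, the lowest db/+ library. The libraries of db/db on water replicate 2 and of db/db on brazzein replicate 2 each held the lowest value of 8 of the 32 genes, and db/+ on sucrose replicate 2 held the highest value of 8.

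**Figure D4:**
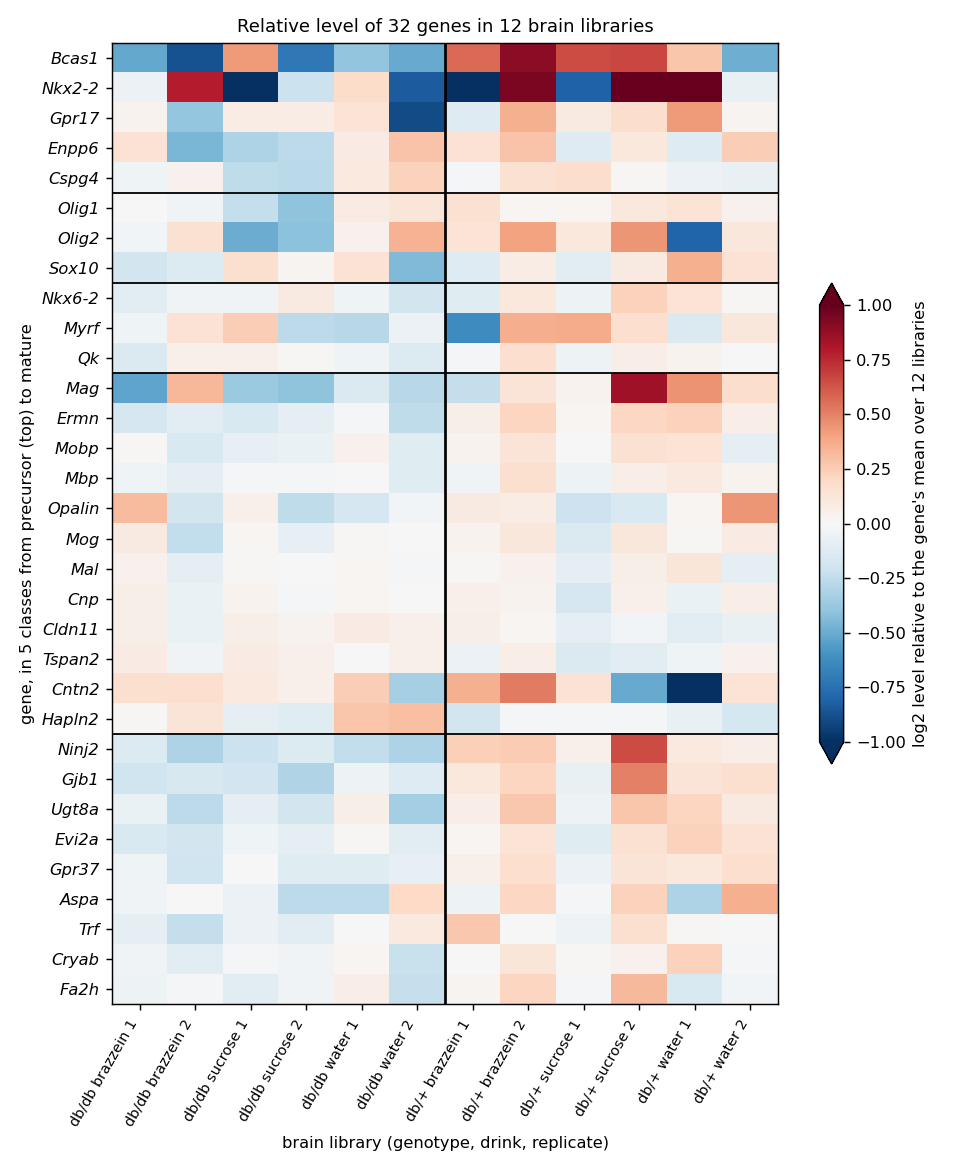
Log2 CPM of each gene relative to its mean over the 12 brain libraries (colour, limited to 1 in either direction), with 6 db/db libraries left of the vertical line, 6 db/+ libraries right of it, and horizontal lines between the 5 classes. Blue prevails on the left and red on the right, with Nkx2-2, Bcas1, Mag and Cntn2 the most uneven rows.

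The second question was whether brazzein or sucrose differed from water, or from each other, in these genes. No gene of the 32 passed an adjusted p of 0.05 in edgeR in any of the 9 comparisons between drinks, either within a genotype or averaged; of all genes, edgeR called 0.00846% when brazzein was set against sucrose in db/db brains, and 0% in the other 8. Averaged over genotypes, brazzein against water gave 15 genes above and 17 below 0 with a median of -0.01, and 0 genes at an unadjusted p under 0.05 in edgeR (4.61% of all genes); 49.4% of all genes were below 0. The 95% interval stayed within 1.5-fold for 27 of the 32 genes. Brazzein against sucrose gave 19 above and 13 below 0 (median 0.01), and sucrose against water 10 above and 22 below 0 (median -0.02), with edgeR intervals within 1.5-fold for 25 and 26 genes; of all genes, 49.5% and 51.1% were below 0. At an unadjusted p under 0.05, edgeR listed 1 gene in the first (Olig1; 4.02% of all genes) and 2 in the second (Olig1 and Hapln2; 5.61%). DESeq2 called 0 of the 32 in all 3, where it called 0.254%, 0.292% and 0.309% of the genes given an adjusted p. Both averaged comparisons with water include the db/+ library with few cerebellum markers. In them all 12 cerebellum markers were above 0 (median 0.22 for sucrose and 0.21 for brazzein). The part of that library in these differences was not tested.

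The drink comparison with the most DESeq2 calls was sucrose against water in db/db brains. There 3 of the 32 passed (Cspg4, Olig1 and Hapln2) among 0.845% of the genes given an adjusted p. At an unadjusted p under 0.05, edgeR listed these 3 and Olig2 (7.2% of all genes), all below 0. These 4 genes were singled out after their values were seen. Cspg4 had 18.2 and 19.3 CPM in db/db mice on brazzein, 15.8 and 15.6 on sucrose and 20.1 and 22.1 on water, and in db/+ mice 18.6 and 20.9 on brazzein, 21.2 and 18.97 on sucrose and 18.1 and 17.9 on water. The 2 db/db libraries on sucrose were the lowest of the 12. Olig1 had 135.0 and 131.5 CPM in db/db mice on brazzein, 114.6 and 102.0 on sucrose and 142.7 and 147.1 on water, and in db/+ mice 149.9 and 136.5 on brazzein, 137.1 and 145.3 on sucrose and 148.7 and 138.7 on water. Here too the 2 db/db libraries on sucrose lay below the other 10.

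Sucrose against water in db/db brains gave log2 differences of -0.43 (SE 0.10) for Cspg4, with an edgeR adjusted p of 0.521 and a DESeq2 adjusted p of 0.0163, and of -0.42 (SE 0.08) for Olig1, with an edgeR adjusted p of 0.435 and a DESeq2 adjusted p of 0.00411. Olig2, the partner factor of Olig1, had 26.7 and 30.2 CPM in db/db mice on brazzein, 19.3 and 20.5 on sucrose and 28.1 and 34.6 on water. In db/+ mice Olig2 had 29.96 and 35.9 CPM on brazzein, 29.2 and 37.05 on sucrose and 15.6 and 29.4 on water. The db/db libraries on sucrose were the lowest but for that 1 db/+ library on water, and the log2 difference from water in db/db brains was -0.66 (SE 0.27, edgeR adjusted p = 0.677, DESeq2 adjusted p = 0.462).

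Hapln2 had 50.5 and 54.9 CPM in db/db mice on brazzein, 46.9 and 46.1 on sucrose and 60.8 and 61.8 on water. In db/+ mice it had 44.2 and 49.6 CPM on brazzein, 49.6 and 49.8 on sucrose and 47.6 and 44.4 on water. The 2 db/db libraries on water were the highest of the 12, and sucrose against water in db/db brains differed by -0.40 (SE 0.08, edgeR adjusted p = 0.448, DESeq2 adjusted p = 0.00221). The difference between genotypes in the sucrose against water contrast, tested as an interaction, was -0.59 (SE 0.15) for Cspg4 and -0.51 (SE 0.11) for Hapln2, with edgeR adjusted p-values of 0.580 and 0.520 and DESeq2 adjusted p-values of 0.0234 and 0.0114. In that interaction edgeR called 0 of the 32 and 0% of all genes. It listed 4 of the 32 at an unadjusted p under 0.05 (6.39% of all genes). DESeq2 called 2 of the 32 and 0.836% of the genes it gave an adjusted p. Sox10, the third lineage-wide factor, was not low on sucrose, with 53.8 and 49.05 CPM in db/db mice on sucrose and 53.1 and 35.5 CPM in db/db mice on water.

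**Figure D5:**
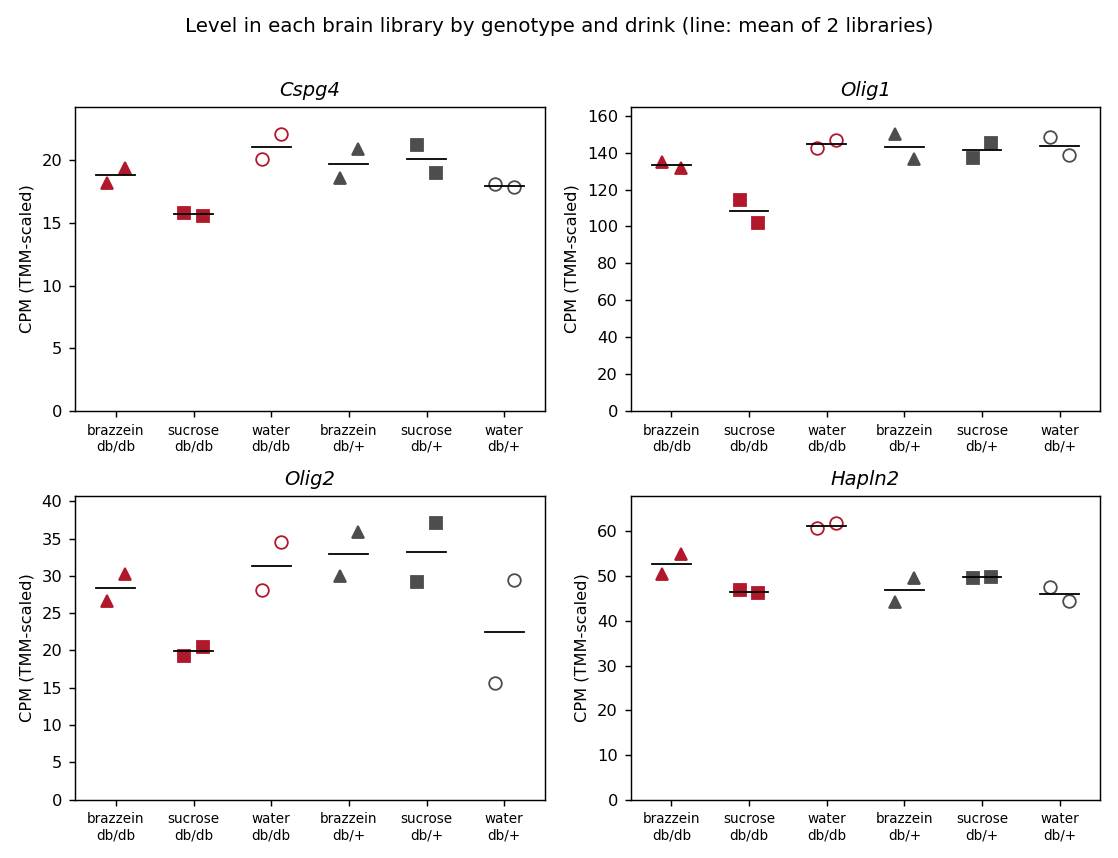
CPM of Cspg4, Olig1, Olig2 and Hapln2 in each library of the 6 groups, db/db groups to the left, with a line at the mean of 2 libraries. The db/db libraries on sucrose lie below the other db/db libraries in all 4 panels, at 15.8 and 15.6 CPM for Cspg4.

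DESeq2 called 0 of the 32 in the other 5 comparisons of drinks within a genotype. In db/db brains, brazzein against water gave 1 gene at an unadjusted p under 0.05 in edgeR (Hapln2, log2 -0.22; 4.82% of all genes, DESeq2 calling 0.417%), and brazzein against sucrose gave 3 (Cspg4 at 0.26, Olig1 at 0.30 and Hapln2 at 0.18; 5.36% of all genes, DESeq2 calling 0.612%). In db/+ brains, edgeR listed 1 gene for brazzein against water (Cldn11, log2 0.13), where the share of all genes was 4.86%. It listed 0 for sucrose against water (4.72%) and 0 for brazzein against sucrose (3.18%). DESeq2 called 0.354%, 0.368% and 0.203% of the genes it gave an adjusted p in these comparisons. Comparisons that use the same sucrose or water libraries share them, so their values are not separate evidence. Every comparison that uses db/+ on water, interactions included, holds the library with few cerebellum markers. For the other 2 interactions, of genotype with brazzein against water and with brazzein against sucrose, both tools called 0 of the 32. EdgeR called 0% of all genes, and DESeq2 0.441% and 0.368% of the genes it gave an adjusted p. At an unadjusted p under 0.05, edgeR listed Cldn11 and Trf in the first (5.5% of all genes) and Olig1 and Hapln2 in the second (4.68%).

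Other genes of the lineage were read from lists that share no member with the 32. The lists were chosen with earlier results of these data known, so they are not separate evidence. Of 60 tested genes of mature oligodendrocytes, 47 were below and 13 above 0 in db/db relative to db/+ brains (median -0.14). None passed an adjusted p of 0.05 in edgeR, 21 had an unadjusted p under 0.05 (19 below 0), and DESeq2 called 12, all below 0. For this and the lists that follow, the shares were 13.8% of all genes at an unadjusted p and 4.45% of the genes with an adjusted p in DESeq2. Abundant genes of the list were the tubulin Tubb4a with 825 ± 43.4 CPM in db/db and 902 ± 20.9 CPM in db/+ brains (log2 -0.13, SE 0.03, edgeR adjusted p = 0.151) and the microtubule protein Tppp with 478 ± 15.7 CPM in db/db and 567 ± 31.2 CPM in db/+ brains (log2 -0.25, SE 0.04, edgeR adjusted p = 0.114). Summed over the list, db/db libraries had 5676, 6452 and 6693 CPM (lowest, median and highest) and db/+ libraries 6669, 6914 and 7127 CPM, and the highest db/db library exceeded 2 db/+ libraries.

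Of 41 other genes of precursors and newly forming cells, 27 were below and 14 above 0 between genotypes, with a median of -0.03; edgeR called none, 6 had an unadjusted p under 0.05, and DESeq2 called 3. Their 3 most abundant were the matrix proteoglycan Bcan (log2 0.07), the receptor Gpr37l1 (0.07) and the phosphatase Ptprz1 (-0.08), with edgeR adjusted p-values between 0.449 and 0.623. For sucrose against water in db/db brains the same list had 21 above and 20 below 0 and a median of 0.00. The low levels of Cspg4, Olig1 and Olig2 there were thus not shared by the list as a whole. Whether other brain cells also express the listed genes was not tested, so the list need not stand for precursors alone. Among 16 axonal partners of the sheath, such as channels and neurofilaments beside the node, 11 were below and 5 above 0 between genotypes (median -0.11), none of them called by edgeR. Their 3 most abundant were Nefl (log2 -0.10), Cntn1 (-0.13) and Nefm (-0.19), with edgeR adjusted p-values between 0.151 and 0.338, and 8 of the 16 had an unadjusted p under 0.05, where DESeq2 called 4. Their summed level was 3051 to 3359 CPM in db/db and 3478 to 3816 CPM in db/+ libraries, without overlap. It was 1 of 19 list sums read, and that of choroid plexus and ependyma did not overlap either, lying higher in db/db. No chance share was computed for sums, which follow the most abundant genes of a list. The 11 tested genes of peripheral nerve myelin had a median of 0.03 (7 above 0; edgeR called none, 1 had an unadjusted p under 0.05, and DESeq2 called 0).

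Summed markers of other cells also lay apart by genotype in part. All 12 microglia markers were below 0 (median -0.13; summed level 347 to 403 CPM in db/db and 382 to 474 CPM in db/+ libraries), and all 10 red blood cell markers were above 0 (median 0.57; 1769 to 2925 CPM and 1138 to 2238 CPM). Of 12 markers of choroid plexus and ependyma, 10 were above 0 (median 0.12; 1195 to 1376 CPM in db/db and 807 to 1124 CPM in db/+ libraries), and of 12 hypothalamus markers 8 were (median 0.10; 148 to 186 CPM and 130 to 165 CPM). The 15 neuron markers had 12 below 0 (median -0.03), and the 12 astrocyte markers 8 below 0 (median -0.03). EdgeR called none of these 6 lists’ genes; at an unadjusted p under 0.05 it listed 4 microglia, 6 red blood cell, 4 choroid plexus, 3 hypothalamus, 5 neuron and 5 astrocyte markers, of which DESeq2 called 1, 0, 2, 3, 0 and 3. The other lists had medians of 0.00 for endothelial cells and pericytes, 0.08 for meninges, -0.03 for cortex, 0.06 for striatum, 0.11 for hippocampus, -0.11 for thalamus, 0.07 for cerebellum, -0.01 for hindbrain and spinal cord and 0.11 for olfactory bulb. The part of these cells, of blood and of the piece of brain taken in the differences of the 32 genes was not tested.

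Without the 2 libraries that stood apart (db/+ on water replicate 1 and db/db on sucrose replicate 1), 28 of the 32 genes were below 0 between genotypes and the median was -0.16. EdgeR again called 0, and 7 genes instead of 12 had an unadjusted p under 0.05, where the share of all genes was 9.91% instead of 13.8%. Of all genes in that fit, 50.7% were below 0.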

How the data were processed

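Polyadenylated RNA of brain and liver was made into libraries with a kit that does not mark strand, per the labels' protocols. The deposited files hold, per gene, an estimated count made by the authors as a whole number, so no rounding was needed, and the series table holds FPKM computed by the authors; 24 other columns of that table were not used. Reads were demultiplexed with bcl2fastq and placed on GRCm39, per the submitters' processing notes; no aligner, counter or annotation is named in these notes. Counts were scaled by TMM and tested with edgeR 4.0.16 (quasi-likelihood, filterByExpr, 6 groups in 1 fit) under R 4.3.3, with Benjamini-Hochberg adjustment over 23653 genes in each of 16 comparisons; the threshold was 0.05, and CPM, SE and 95% intervals come from this fit. DESeq2 1.42.0 was an alternative, as were RLE size factors, no filter, an additive model, a replicate block and leaving out libraries. Overlapping genes were read from GENCODE M21. Besides Bcas1, Ermn and Evi2a, exons of Mobp, Cnp, Olig1, Nkx6-2, Nkx2-2, Tspan2, Trf, Cryab and Gpr17 overlap those of other genes there. Reads of the shared stretches cannot be assigned by strand. The 32 genes, their 5 classes and the 19 marker lists were chosen with earlier results of these data known. No gene passed; the lowest, median and highest library per genotype are given for 10 fixed members and for genes singled out after their values were seen, and others are named by range or difference, and of a list without calls the 3 most abundant, of which 1 is not reported here. No test compared brain with liver.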

Additional observations from a re-analysis of the deposited data

Results flagged for a closer look

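Among 102 sets of 6 libraries of 1 genotype (32 genes and 19 marker sums in each), 12 had a lowest or highest library far from the nearest other; chance gives about 1 in 20. In db/db brains, Bcas1 was highest at 100.4 CPM on sucrose replicate 1 (next 57.0 CPM), and the sum of axonal partners was lowest there at 3051 CPM (next 3278). In db/db on brazzein replicate 2, Cldn11 was lowest at 172.5 CPM (next 185), the sum of other mature oligodendrocyte genes lowest at 5676 CPM (next 6387), and the hippocampus markers highest at 388.6 CPM (next 309.9).

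In db/+ brains, the library on water replicate 1 was lowest for Olig2 at 15.63 CPM (next 29.24), for choroid plexus and ependyma markers at 806.9 CPM (next 1055), for thalamus markers at 371.2 CPM (next 428.5) and for cerebellum markers at 783.3 CPM (next 1928). Ninj2 was highest at 3.096 CPM on sucrose replicate 2 (next 2.352). Microglia markers were lowest at 382.1 CPM on brazzein replicate 1 (next 440.5), and meninges and fibroblast markers highest at 199.2 CPM on water replicate 2 (next 179.7).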

How the results depend on the processing

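DESeq2 called 5 of the 32 genes for genotype averaged over drinks, 1 on water, 1 on sucrose, 1 on brazzein, 3 for sucrose against water in db/db brains and 2 for its interaction with genotype, where edgeR called 0; the cause was not tested. Under RLE size factors, no filter, the additive model and each left-out library (0 to 0), edgeR called 0 of the 32 in every comparison fitted. Between genotypes, leaving out 1 library gave 26 to 28 genes below 0 (48.7% to 52.2% of all genes) and a median log2 difference of -0.17 to -0.10. It gave 9 to 14 genes at an unadjusted p under 0.05 (11% to 15.8% of all genes). Leaving out the 2 libraries that stood apart, an alternative chosen after seeing the data, gave 7 at that threshold (9.91%). Of the 32 genes, none of which was called, the sign turned for 5 with 1 library left out: Cnp (0.01; -0.0244 to 0.0457), Mal (-0.01; -0.0492 to 0.0220), Cntn2 (0.09; -0.0718 to 0.325), Olig2 (-0.289 to 0.0169) and Myrf (-0.238 to 0.0888). Without the 2 libraries it turned for Cnp (-0.0222), Mal (0.0210) and Cntn2 (-0.0791). Deposited FPKM gave the direction of CPM for 31 of the 32 genes, Mal being the other. With the replicate number as a block, edgeR called 0 of the 32 in every comparison. Between genotypes 10 of the 32 then had an unadjusted p under 0.05 (13.2% of all genes). Deviations of same-numbered libraries correlated at -0.041 to 0.040 over 15 pairs of groups, so no shared shift was seen. This cannot show whether same-numbered libraries had a cage or a day in common.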
